A study of Mus musculus with 5 samples.

Results

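The genes described here are the TAM receptors and their ligands. Axl, Tyro3 and Mertk encode 3 receptor tyrosine kinases, and Gas6 and Pros1 encode 2 ligands of this family. These 5 genes were picked by gene symbol from 14454 genes, and all were listed. Their choice rested on how T120D and wt expression differed, with receptors and ligands moving opposite ways, so the values of that comparison are given as a description, with no test. RNA was sequenced from 5 lines made from NIH/3T3 cells, which are immortalised fibroblasts of mouse embryos. Of these, 4 lines, numbered 3, 6, 15 and 18, expressed EGFP fused to human histone H2A with the T120D substitution, in which aspartate replaces a threonine of the C-terminal tail. The remaining line, wt, expressed EGFP fused to wild-type human H2A. Every line thus carried an EGFP-H2A transgene beside its own H2A genes, no line without one was analysed here, and all were grown in DMEM with 10% fetal calf serum and gentamicin. The labels name neither the promoter of the transgene nor whether a line was 1 clone.

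TAM receptors are activated when a ligand bridges them to phosphatidylserine, a lipid exposed on dying cells and on membrane vesicles. Gas6 binds all of the receptors, while protein S, the product of Pros1, is a ligand of Tyro3 and Mertk and otherwise serves as an anticoagulant cofactor in plasma. Both ligands need vitamin K-dependent carboxylation to bind phosphatidylserine. In fibroblasts Axl drives survival and growth signals, and Gas6 takes its name, growth arrest specific, from its isolation in growth-arrested NIH/3T3 cells.

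Estimated depth was 2525000 to 2705000 reads in the T120D lines and 2725000 in the wt line. RPKM gives reads per kilobase of transcript, scaled to the depth of the line. Over the 10052 genes that averaged 1 RPKM or more, which are those tested, the root mean square distance on the log2(RPKM + 1) scale was 0.31 to 0.34 between T120D lines and 0.53 to 0.57 between a T120D line and the wt line. Lines 3, 15 and 18 lay 0.31 to 0.32 from each other and 0.33 to 0.34 from line 6, and whether this gap exceeds counting noise was not tested. The labels do not tell whether the T120D lines are independent of each other. Differences below therefore set 1 wt line, which has no replicate, against 4 lines that may count for fewer. Fibroblast genes were abundant, with Col1a1 at 160.3 ± 14.7 RPKM (SD, n = 4) in T120D against 168.8 RPKM in wt and Vim at 827 ± 22.3 RPKM in T120D against 701 RPKM in wt, though Lum was at most 0.362 RPKM in T120D against 3.89 RPKM in wt. Of 12 tested fibroblast markers, 1 was called higher and 7 lower in T120D by the limma test described below. These calls made up 66.7% of the markers, against 13.1% called over all tested genes. Col1a1 and Vim were not called. The lower markers were Pdgfra, Col3a1, Fn1, Dcn, Pdgfrb, S100a4 and Col1a2. Their log2(RPKM + 1) differences ran from -1.71 for Pdgfra to -0.45 for Col1a2, and that of the higher marker, Thy1, was 1.39. Of 8 macrophage markers with values, which bear on Mertk, the summed level was 3.05 to 7.41 RPKM in the T120D lines and 3.66 RPKM in the wt line, Cd14 was the most abundant of them, and Aif1 was at 0 in every line.

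Promoter sequences of all 5 genes were found in RefSeq (GRCm38.p6). They are shown for Axl and Gas6, the members whose levels differed most in RPKM, as the 250 bases before the annotated start, read 5′ to 3′ on the strand of the gene. Capitals mark a GC box, GGGCGG on either strand, which Sp1 and Sp3 bind, or a TEAD element, GGAATG on either strand. The Axl window lies on the minus strand at chr7:25788734-25788983 and the Gas6 window on the minus strand at chr8:13494536-13494785, both in GRCm38.p6, while the expression values were made on mm9.
Axl: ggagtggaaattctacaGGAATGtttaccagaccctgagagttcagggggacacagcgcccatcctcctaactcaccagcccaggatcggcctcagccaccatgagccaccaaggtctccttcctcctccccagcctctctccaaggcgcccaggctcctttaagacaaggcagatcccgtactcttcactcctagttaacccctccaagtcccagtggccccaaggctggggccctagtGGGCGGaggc
Gas6: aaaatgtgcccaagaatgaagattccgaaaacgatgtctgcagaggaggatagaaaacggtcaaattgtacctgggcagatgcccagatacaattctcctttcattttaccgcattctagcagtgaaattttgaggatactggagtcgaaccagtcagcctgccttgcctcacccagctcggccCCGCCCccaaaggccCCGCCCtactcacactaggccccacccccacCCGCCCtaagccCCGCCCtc
The Axl window held 1 GC box, 10 to 5 bases before the start, and 1 TEAD element, 233 to 228 bases before it. The Gas6 window held 4 GC boxes, all within 66 bases of the start, and 0 TEAD elements. Of the other members, Tyro3 had 3 GC boxes, Mertk 3 and Pros1 5, of which a pair overlapped, and none of these windows had a TEAD element. The AP-1 site, TGANTCA on either strand, was in none of the 5 windows. Among 32851 windows of the same length in the table, 32.7% held a GC box, 12.6% a TEAD element and 6.75% an AP-1 site. These matches describe the letters alone, and binding was not measured.

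Axl, the most abundant of the receptors, was higher in every T120D line, as were 31.1% of tested genes. Its level was 135.5 RPKM in T120D line 3, 134.7 RPKM in line 6, 139.0 RPKM in line 15 and 130.2 RPKM in line 18, against 78.2 RPKM in the wt line. The 4 T120D lines were nearly level with each other and none came near the wt line. Their mean was 134.9 ± 3.64 RPKM (SD, n = 4), 1.72 times the wt value, with ratios of single lines from 1.66 to 1.78. The log2(RPKM + 1) difference was 0.78, and 4.80% of tested genes had a larger one. Some 1457 to 1577 estimated reads stood behind each T120D value and 909 behind the wt value. The 95% Poisson intervals ran from 123.5 to 146.0 RPKM over the T120D lines and from 73.2 to 83.5 RPKM in wt. All intervals given here, exact Poisson for levels and exact binomial for ratios of pooled reads, cover counting error only. They leave out variation between lines and are no test, since the members were chosen from this comparison and wt is 1 line.

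Tyro3 was low but also lay above the wt line in each T120D line. It was at 4.16 RPKM in T120D line 3, 3.98 RPKM in line 6, 3.86 RPKM in line 15 and 4.57 RPKM in line 18, against 2.85 RPKM in wt. The groups did not overlap, but all 4 T120D lines also lay above wt in 31.1% of tested genes. The gap was 1.01 RPKM and rested on few reads, 46 to 53 in a T120D line and 35 in wt, estimated with the longer transcript. The mean was 4.14 ± 0.309 RPKM (SD, n = 4), 1.45 times the wt value, a log2(RPKM + 1) difference of 0.42. The Poisson interval of wt, 2.01 to 4.01 RPKM, overlapped that of every T120D line, and the ratio of pooled reads, 1.44, had a 95% interval of 0.998 to 2.12.

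Mertk, the receptor best known from macrophages, was close to absent. Its level was 0.556 RPKM in T120D line 3, 0.208 RPKM in line 6, 0 RPKM in line 15 and 0.320 RPKM in line 18, against 0.206 RPKM in wt. The wt value lay inside the T120D range. At a fitted transcript length of 3563 bases these values fell on 5, 2, 0 and 3 reads in the T120D lines and 2 reads in the wt line. That length was chosen to bring the T120D values nearest to whole reads, so their closeness to whole numbers does not support it. At the annotated length of 4302 bases the estimates were 6.04, 2.42, 0 and 3.62 reads in the T120D lines and 2.42 in wt. For line 15, a count of 0 allows up to 0.317 RPKM by a limit of 3 reads and up to 0.389 RPKM by the 95% Poisson interval drawn in the plot of the members. Counting error alone gave the ratio of pooled reads, at the fitted length, a 95% interval of 0.276 to 12.2. No direction is read for Mertk from so few reads. The sign of its log2 difference changed with the pseudocount (0.06 with 1 RPKM, -0.01 with 0.1 RPKM) and without line 3 (-0.05). Mertk did not pass the filter of a mean of at least 1 RPKM, which the other 4 members passed. Gas6 passed it through the wt line alone, since its T120D mean was under 1 RPKM, and so had to differ to be tested.

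**Figure D1:**
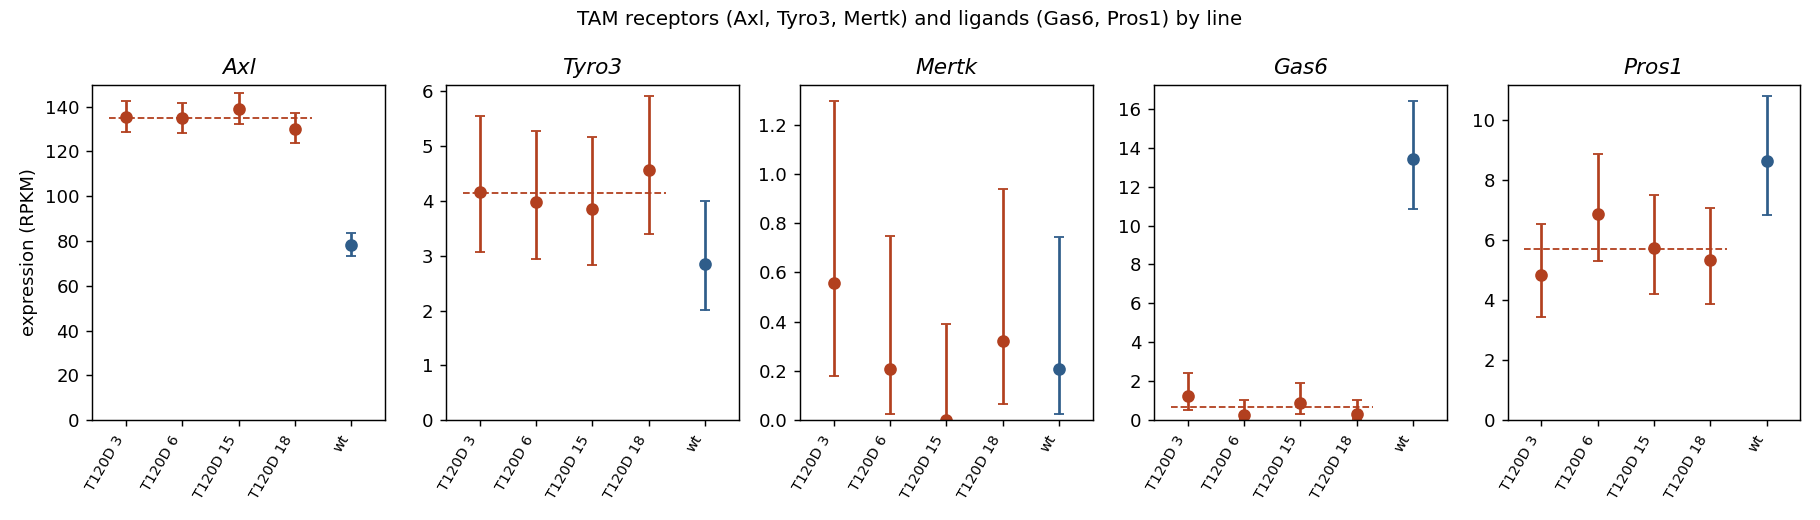
Expression (RPKM, each panel with its own linear axis from 0) of Axl, Tyro3, Mertk, Gas6 and Pros1 in the 4 T120D lines (red) and the wt line (blue). Points are single lines, bars are 95% Poisson intervals of the estimated reads and the dashed line is the T120D mean (none for Mertk). Axl lies between 130.2 and 139.0 RPKM in T120D and at 78.2 RPKM in wt, while Gas6 is at most 1.22 RPKM in T120D and 13.4 RPKM in wt.

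Gas6, the ligand shared by the receptors, showed the largest difference among the members, in the opposite direction to Axl. It was at 1.22 RPKM in T120D line 3, 0.285 RPKM in line 6, 0.869 RPKM in line 15 and 0.293 RPKM in line 18, against 13.4 RPKM in the wt line. Every T120D line lay far below wt, lines 6 and 18 lowest. At a length of 2597 bases, fitted as for Mertk, the values fell on 8, 2, 6 and 2 reads in the T120D lines and on about 95 reads in wt. At the annotated length of 2548 bases the estimates were 7.85, 1.96, 5.89 and 1.96 reads in the T120D lines and 93.3 in wt. The T120D mean was 0.667 ± 0.459 RPKM (SD, n = 4), 0.0496 times the wt value. From 18 pooled reads in T120D, the wt level was 20.4 times that of T120D, with a 95% interval of 12.2 to 35.8. The log2(RPKM + 1) difference was -3.16, lower than that of all but 8 tested genes, a place given as description because the filter was passed through wt. With a pseudocount of 0.1 RPKM it was -4.35, because the pseudocount of 1 RPKM exceeds most of the T120D values.

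Pros1, which encodes protein S, was lower in T120D by a smaller margin. It was at 4.84 RPKM in T120D line 3, 6.89 RPKM in line 6, 5.74 RPKM in line 15 and 5.34 RPKM in line 18, against 8.64 RPKM in wt. All T120D lines lay below wt, as for 32.3% of tested genes, and line 6 was the nearest to it. The mean was 5.70 ± 0.873 RPKM (SD, n = 4), 0.660 times the wt value, a log2(RPKM + 1) difference of -0.53 that 11.6% of tested genes undercut. The Poisson interval of wt, 6.85 to 10.8 RPKM, overlapped those of lines 6, 15 and 18 but not that of line 3, which ended at 6.53 RPKM. With pooled reads the T120D level was 0.658 times that of wt (95% interval 0.504 to 0.866, counting error only and no test).

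Taking the members as a group, Axl and Tyro3 were higher in all 4 T120D lines, as were 31.1% of tested genes, and Gas6 and Pros1 were lower in all 4, as were 32.3% of tested genes. The rule that chose the members used this comparison, so nothing is read from these counts. In single T120D lines, the log2(RPKM + 1) difference from wt was 0.73 to 0.82 for Axl, 0.34 to 0.53 for Tyro3, -0.72 to -0.29 for Pros1 and -3.49 to -2.70 for Gas6.

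**Figure D2:**
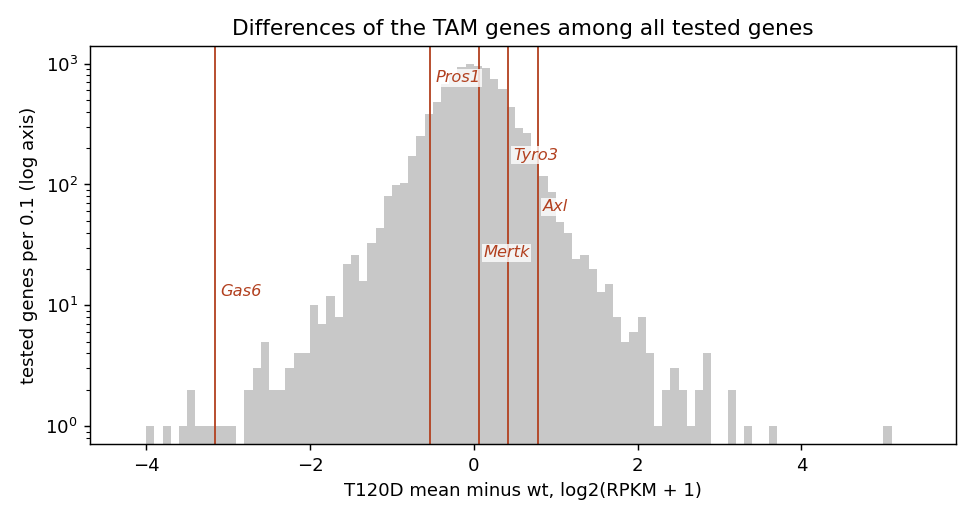
Histogram of the T120D mean minus wt in log2(RPKM + 1) over 10052 tested genes (grey, log axis for the number of genes), with the members as red lines; Mertk is drawn although it was not tested. Gas6, at -3.16, lies in the low tail, Axl (0.78) lies in the upper 4.80% of tested genes, and Tyro3 (0.42), Mertk (0.06) and Pros1 (-0.53) lie nearer the centre.

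The spread among the T120D lines was set beside what counting reads alone gives. The coefficient of variation was 2.70% for Axl, where counting gives 2.57%, and 15.3% for Pros1, where it gives 14.2%. For Tyro3 it was 7.46%, below the 14.4% of counting. For Gas6 it was 68.9%, where counting gives 47.6%, and Mertk, listed at 0 in line 15, is given by its reads above. No variation between T120D lines beyond counting could thus be resolved for Axl, Tyro3 or Pros1. For Gas6, the interval of line 3, 0.527 to 2.40 RPKM, overlapped that of line 6, 0.0345 to 1.03 RPKM.

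The ligands also changed places. Gas6 made up 20.1% of the summed ligand RPKM in T120D line 3, 3.97% of it in line 6, 13.1% of it in line 15 and 5.20% of it in line 18, against 60.9% in the wt line. Pros1 thus led in every T120D line and Gas6 in the wt line. The ligand sum was 6.37 ± 0.670 RPKM (SD, n = 4) in T120D against 22.1 RPKM in wt. The receptor sum was 139.3 ± 3.26 RPKM (SD, n = 4) in T120D against 81.3 RPKM in wt, and Axl formed 96.4% to 97.3% of it in the T120D lines and 96.2% in wt. Receptor RPKM stood at 19.4 to 24.0 times ligand RPKM in the T120D lines and at 3.68 times in the wt line. These are ratios of transcript levels and say nothing of protein amounts. In the T120D lines they set mostly Axl against mostly Pros1, although protein S is named above as a ligand of Tyro3 and Mertk. Their direction follows from the rule, which chose the members by opposite moves of receptor and ligand. In RNA pooled from many cells, fewer expressing cells and less RNA per cell cannot be told apart.

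**Figure D3:**
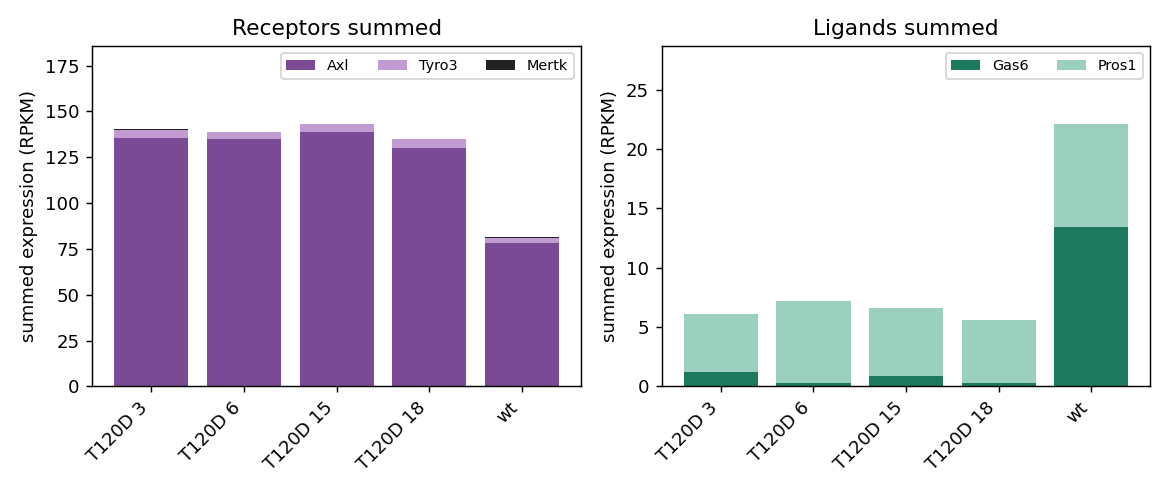
Stacked expression (RPKM, linear axes from 0) of the receptors Axl, Tyro3 and Mertk (left) and of the ligands Gas6 and Pros1 (right) in each T120D line and the wt line. The receptor sum is 135.1 to 142.9 RPKM in T120D and 81.3 RPKM in wt and is nearly all Axl; the ligand sum is 5.63 to 7.17 RPKM in T120D, mostly Pros1, and 22.1 RPKM in wt, mostly Gas6.

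Axl had the highest level of the 38 receptor tyrosine kinases with values, in each of the 5 lines. It held 35.4% to 37.0% of their summed RPKM in the T120D lines and 21.0% in the wt line. Ddr2, a collagen receptor, ranked next in every line, at 44.5 ± 3.20 RPKM (SD, n = 4) in T120D against 76.4 RPKM in wt. In the T120D lines the ranges of Axl and Ddr2 lay far apart, whereas in the wt line Ddr2 was inside the counting interval of Axl. Tyro3 ranked 17 or 18 in the T120D lines and 19 in wt. In the T120D lines its values, 3.86 to 4.57 RPKM, overlapped those of its neighbour Insr, the insulin receptor gene, at 4.14 to 4.67 RPKM. Mertk was among the kinases under 1 RPKM, of which there were 15 by the T120D mean.

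The pattern of each member over the T120D lines, each minus wt, was set against all tested genes. This is a description, since the comparison chose the members and all 4 differences share the 1 wt value. Where the T120D lines are nearly level, a small distance means little more than a like mean difference. Nearest to Axl were Ncln, Ubald2 and Tuba1c, at root mean square distances of 0.02, 0.04 and 0.05 log2 units over 4 differences. Nearest to Tyro3 were Cited2 (0.02), Csnk1e (0.03) and Dvl1 (0.04), and nearest to Pros1 were Tmem143 (0.04), 1810026B05Rik (0.05) and Cep44 (0.06). Gas6 had no close neighbour, but only 8 tested genes had a lower difference and its T120D values rest on 2 to 8 reads. Its nearest genes, Enpp2, Spp1 and Lrrc17, lay 0.40, 0.40 and 0.53 away, and Enpp2 and Lrrc17 were also under 1 RPKM in every T120D line.

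Other genes of the TAM pathway were tested in the fit over all tested genes, with limma on log2(RPKM + 1), two-sided, and calls at a Benjamini-Hochberg adjusted p under 0.05. By this rule 13.1% of the 10052 tested genes were called, 7.65% higher and 5.45% lower in T120D. Of 144 tested genes in the lists below, the members left out, 15 were higher and 18 lower (22.9%), and their median difference was -0.08, against -0.02 over all tested genes. The spread comes from the T120D lines alone, since wt has no replicate. It may be partly technical, because the labels do not tell whether lines were separate clones or cultures. Without line 3 the lower calls numbered 11. Lists were drawn up with earlier results of these data known.

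Genes for the vitamin K cycle and for Gla proteins bear on the maturation of both ligands. Of 11 tested, 2 were higher and 0 lower (18.2% called, against 13.1% of all tested genes). Their median difference was -0.08. Vkorc1l1, a vitamin K epoxide reductase gene, was at 8.32 ± 0.348 RPKM (SD, n = 4) in T120D against 4.75 RPKM in wt (log2 difference 0.70, limma adjusted p = 0.0232). Vkorc1, the other epoxide reductase gene, was lower in all 4 T120D lines but not called, at 9.87 ± 1.35 RPKM (SD, n = 4) in T120D against 15.2 RPKM in wt (-0.58, limma adjusted p = 0.0746). Calu encodes calumenin, an inhibitor of the carboxylation system. It was at 239.5 ± 4.86 RPKM (SD, n = 4) in T120D against 193.9 RPKM in wt (0.30, limma adjusted p = 0.0376), a call that ended in 6 of 10 alternatives, those without line 3, 15 or 18 among them. Ggcx, the carboxylase gene itself, was not called, at 5.45 ± 0.573 RPKM (SD, n = 4) in T120D against 5.19 RPKM in wt.

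Receptor shedding releases the TAM ectodomains, which can bind Gas6 in solution. Of 14 genes of shedding and turnover, 0 were higher and 1 was lower (7.14% called, against 13.1% of all tested genes). Their median difference was -0.12. Timp3, an inhibitor of the shedding proteases, was at 35.3 ± 5.32 RPKM (SD, n = 4) in T120D against 94.6 RPKM in wt, lower by a log2 difference of -1.41 (limma adjusted p = 0.00107). The protease genes Adam10 and Adam17 were not called, with log2 differences of -0.19 and -0.22.

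Among adaptors and effectors that TAM receptors share with other receptors, 4 of 34 tested genes were higher and 2 lower. These calls made up 17.6% of the list, against 13.1% of all tested genes, and the median difference was -0.04. Pik3r1, which encodes a regulatory subunit of PI3-kinase, was at 7.17 ± 0.924 RPKM (SD, n = 4) in T120D against 32.1 RPKM in wt, 4.48-fold lower (log2 difference -2.03, limma adjusted p = 0.000266). Pik3cb, which encodes a catalytic subunit, was at 5.98 ± 0.455 RPKM (SD, n = 4) in T120D against 2.87 RPKM in wt (0.85, limma adjusted p = 0.0186). The kinase gene Src and the adaptor gene Bcar1 were higher by 0.77 and 0.65 (limma adjusted p = 0.0124 and 0.0127). The other 2 calls, named to complete the count after their values were seen, were Rac1, higher by 0.34, and Shc1, at -0.49. Both ended without line 3, line 15 or line 18 and without a trend in limma, where that of Bcar1 also ended, and that of Rac1 ended under quantile normalization as well.

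Phosphatidylserine can be recognised by other bridges and receptors. Of 12 tested genes listed for this or a related role, 3 were higher and 1 lower (33.3% called, against 13.1% of all tested genes). Their median difference was 0.26. The list is broad, and Thbd and Calr are in it for a related role. Thbd encodes thrombomodulin, which activates protein C, the protease that protein S assists. It was at 29.2 ± 2.41 RPKM (SD, n = 4) in T120D against 7.79 RPKM in wt, 3.75-fold higher (log2 difference 1.78, limma adjusted p = 0.000151). Calr, whose product calreticulin is an engulfment signal and chaperone, was higher by 0.77 (limma adjusted p = 0.00106). Mfge8, a bridge from phosphatidylserine to integrins, was at 70.4 ± 6.42 RPKM (SD, n = 4) in T120D against 48.1 RPKM in wt (0.54, limma adjusted p = 0.0253), and its call ended in 3 of 10 alternatives. Edil3, a related bridge, was the lower gene, at 1.33 ± 0.542 RPKM (SD, n = 4) in T120D against 4.12 RPKM in wt (-1.16, limma adjusted p = 0.0403). Its call ended in 6 of 9 alternatives, those without line 3, 6 or 18 among them.

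**Figure D4:**
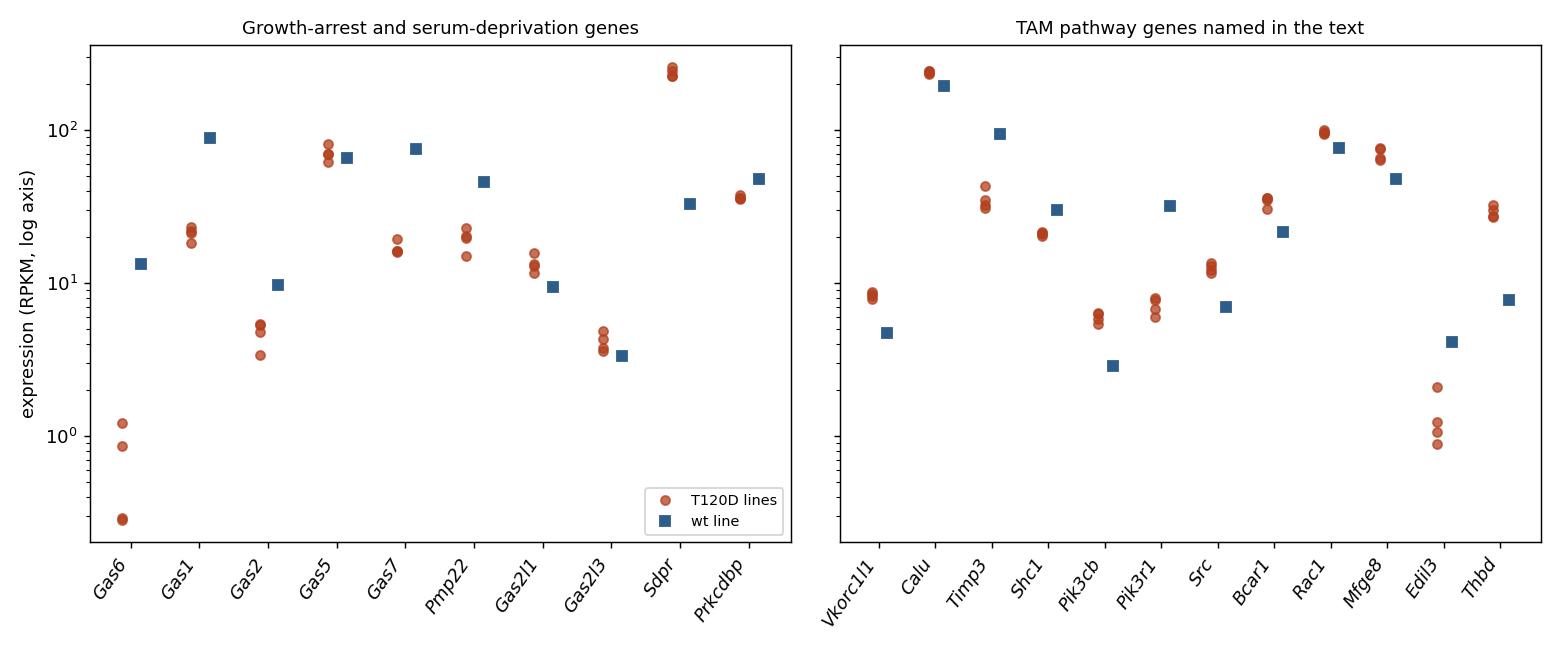
Expression (RPKM, log axes) in the 4 T120D lines (red circles) and the wt line (blue squares). Left, Gas6 and the growth-arrest and serum-deprivation genes, where Gas1, Gas7 and Pmp22 lie below wt in every T120D line and Sdpr above it. Right, genes of ligand maturation, shedding, signalling, phosphatidylserine recognition and protein C activation, where Pik3r1 and Timp3 lie below wt and Thbd above it.

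In the engulfment machinery, 2 of 17 tested genes were higher and 3 lower (29.4% called, against 13.1% of all tested genes). Their median difference was -0.14. The higher genes, Rac1 and Mfge8, are those of the lists above. The lower genes were Lamp2, a lysosomal membrane gene, Snx1, a sorting nexin gene, and Map1lc3b, an autophagy gene (log2 differences of -1.45, -0.79 and -0.48, limma adjusted p = 0.0137, 0.043 and 0.0448). The calls of Snx1 and Map1lc3b ended when any of the T120D lines was left out, and that of Lamp2 without the filter on low values or without a trend. Of 12 tested genes for phosphatidylserine exposure limma called 0, with 2 at an unadjusted p under 0.05 and a median difference of -0.16. The most abundant of them were Bsg, at 196.6 ± 13.0 RPKM (SD, n = 4) in T120D against 166.9 RPKM in wt (limma adjusted p = 0.167), and Nptn, at 35.9 ± 3.33 RPKM (SD, n = 4) in T120D against 42.6 RPKM in wt (limma adjusted p = 0.27), both encoding partners of a scramblase. In the 10 alternatives run, 0 or 1 gene of this list was called.

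Of 19 tested genes for transcription factors known to act on TAM genes, 2 were called higher, 2 were called lower and 15 were not called. These calls made up 21.1% of the list, against 13.1% of all tested genes, and the median difference was -0.21. Fosl1, an AP-1 factor gene, was at 44.4 ± 10.2 RPKM (SD, n = 4) in T120D against 16.5 RPKM in wt (log2 difference 1.34, limma adjusted p = 0.0076). Ets1, an ETS factor gene, was at 23.2 ± 2.05 RPKM (SD, n = 4) in T120D against 14.3 RPKM in wt (0.65, limma adjusted p = 0.0183). Rxra, the partner of the LXR receptors that act on Mertk, and Hif1a, a hypoxia factor gene, were lower by log2 differences of -0.82 and -0.72 (limma adjusted p = 0.0151 and 0.00711). The TEAD factor genes Tead1, Tead2, Tead3 and Tead4 and their coactivator genes Yap1 and Wwtr1 were not called, with differences from -0.24 for Wwtr1 to 0.51 for Tead4 (limma adjusted p = 0.0603). The regulators called higher numbered 3 at a mean of at least 5 RPKM and under quantile normalization, and 1 with genes of low level kept or without a trend. Fosl1 and Ets1 lost their calls when genes of low level were kept, Ets1 also without a trend.

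Genes named for growth arrest or serum deprivation, the class from which Gas6 takes its name, differed in both directions. With Gas6 left out, 1 of 9 tested genes was higher and 5 were lower (66.7% called, against 13.1% of all tested genes), and the median was -0.39. Gas1, an inhibitor of cell-cycle entry, was at 21.2 ± 2.16 RPKM (SD, n = 4) in T120D against 88.2 RPKM in wt, 4.16-fold lower (log2 difference -2.01, limma adjusted p = 0.000107). Gas7 was at 17.0 ± 1.65 RPKM (SD, n = 4) in T120D against 75.3 RPKM in wt (-2.09, limma adjusted p = 8.43e-05). Pmp22, a membrane protein gene also known as Gas3, was at 19.5 ± 3.23 RPKM (SD, n = 4) in T120D against 46.0 RPKM in wt (-1.21, limma adjusted p = 0.00498). The other lower genes, named after their values were seen, were Gas2 (-0.92) and Prkcdbp (-0.39). Sdpr, a gene of caveolae that responds to serum deprivation, went the other way, at 237.8 ± 16.2 RPKM (SD, n = 4) in T120D against 32.8 RPKM in wt (2.82, limma adjusted p = 2.81e-06). Gas5, a noncoding host gene, was not called, at 70.7 ± 7.68 RPKM (SD, n = 4) in T120D against 66.2 RPKM in wt. Gas2l1 and Gas2l3, not called either, were higher by log2 differences of 0.46 and 0.23. The lower genes numbered 3 without line 3 or without a trend, where Gas2 and Prkcdbp lost their calls, and 3 with genes of low level kept, where Gas2 and Pmp22 did. They numbered 4 without line 15, without line 18 and under median scaling, where Prkcdbp lost its call.

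Among the 21 tested receptor tyrosine kinases outside the TAM family, 3 were higher and 4 lower (33.3% called, against 13.1% of all tested genes). Their median difference was 0.03. Epha2, an ephrin receptor gene, was at 26.1 ± 3.10 RPKM (SD, n = 4) in T120D against 7.83 RPKM in wt (log2 difference 1.61, limma adjusted p = 0.000433). Ror1, a Wnt receptor gene, was higher by 1.37 from 0.621 RPKM in wt (limma adjusted p = 0.01), and Met, the hepatocyte growth factor receptor gene, by 0.80 (limma adjusted p = 0.00782; named after its value was seen). Pdgfra was at 12.7 ± 1.72 RPKM (SD, n = 4) in T120D against 43.5 RPKM in wt (-1.71, limma adjusted p = 0.000444). Pdgfrb, Ddr2 and Fgfr1 were lower by log2 differences of -1.12, -0.77 and -0.53 (limma adjusted p = 0.00298, 0.0044 and 0.0277). The call of Fgfr1 ended in 4 of 10 alternatives, those without line 3 or 15 among them, and that of Ror1 without the filter on low values. Ryk, the fourth kinase by mean level over the T120D lines, was not called (limma adjusted p = 0.236).

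**Figure D5:**
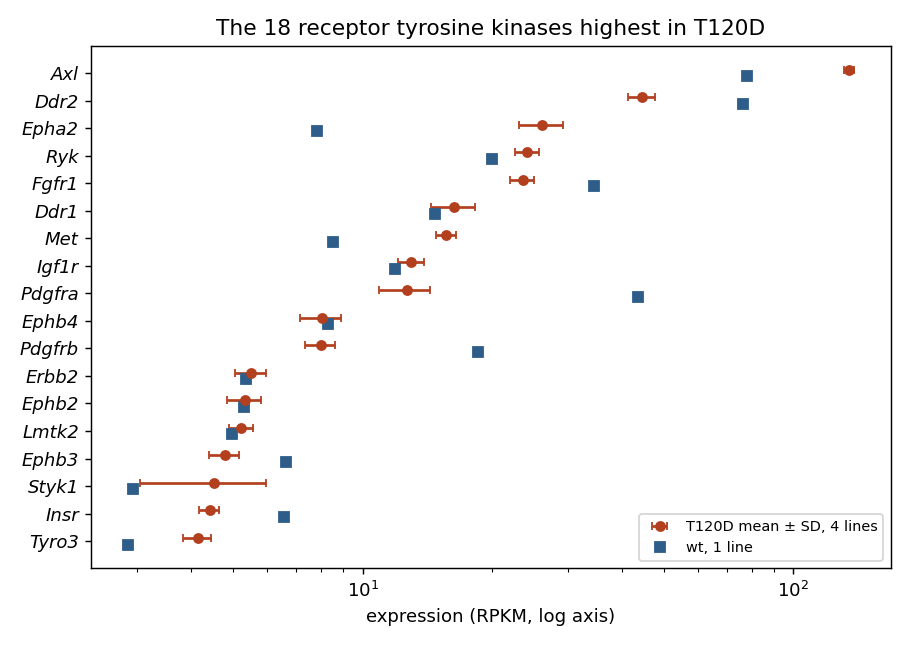
Expression (RPKM, log axis) of the 18 receptor tyrosine kinases highest in T120D, as T120D mean ± SD of 4 lines (red circles) above the wt line (blue squares). Axl leads in both groups, at 134.9 RPKM in T120D and 78.2 RPKM in wt, where Ddr2 is close to it at 76.4 RPKM, and Tyro3 is the lowest drawn in T120D.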

How the data were processed

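Expression was measured by RNA sequencing in 4 T120D lines and 1 wt line. The authors deposited RPKM values per gene symbol for each line. Per the labels, RNA came from ISOGEN II extraction and libraries from a stranded TruSeq mRNA kit. Per the submitters' processing notes, Partek and the build mm9 were used; how reads were aligned, annotated and assigned by strand is not given in the sources used here. RPKM values are no counts, so log2(RPKM + 1) was tested with limma 3.58.1 (R 4.3.3; two-sided, with an intensity trend and Benjamini-Hochberg adjustment over the 10052 genes averaging 1 RPKM or more). The smallest one-sided p of an exact permutation of 1 against 4 lines would be 0.2. The fit was tested on simulated data.

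Depth was estimated by finding where low values of single-transcript genes (GENCODE vM21 lengths, GRCm38) fall on whole reads: 50.4% to 54.2% of 490 to 540 such genes per line lay no more than 0.05 reads from a whole number, so whole reads were not recovered for all genes. Reads of members rest on these depths and on GRCm38 lengths, except that a length within 0.75 to 1.1 times the annotated one was fitted for Mertk and Gas6. No 50-base stretch of a member's transcripts occurred in another gene's transcripts on either strand. As gene bodies, Tmem255b overlaps Gas6 and Gm14011 overlaps Mertk on the opposite strand. If strand was not used, their reads could be confused only outside annotated transcripts or in overlaps shorter than 50 bases. The snoRNA gene Gm23172 overlaps Mertk on the same strand.

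The members and gene lists were chosen with earlier results of these data known. Named were the members, up to 4 called genes with the largest difference in each list (the 2 most abundant where 0 were called), the 3 most abundant other receptor tyrosine kinases and the 3 genes most like each tested member. Other genes named, such as Vkorc1, Ggcx, Adam10, Adam17, Gas5, Insr and those for TEAD factors and their coactivators, were chosen after their values were seen. Alternatives were another pseudocount, no filter and a stricter one, median scaling, quantile normalization, limma without a trend and leaving out each T120D line.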

Additional observations from a re-analysis of the deposited data

Results flagged for a closer look

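Among the 41 members and pathway genes examined, 3 had a T120D line far from the other 3. Chance alone gives about 1 in 20 for a group of 4. Lamp2 was at 45.6 RPKM in T120D line 6, against 23.4 to 26.8 in the other T120D lines and 81.8 in wt. Gas7 was at 19.4 RPKM in line 6, against 16.0 to 16.3 in the other T120D lines and 75.3 in wt. Ets1 was at 26.3 RPKM in line 3, against 21.9 to 22.4 in the other T120D lines and 14.3 in wt. None of the 5 members had such a line.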

How the results depend on the processing

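Every T120D line lay on the same side of wt for Axl, Tyro3, Gas6 and Pros1. Their directions thus could not change with the pseudocount or on leaving out a line, so nothing is read from this. Directions also held under median scaling and quantile normalization, the other alternatives run for the members. The Axl difference was 0.68 under quantile normalization. That of Tyro3 was 0.52 with a pseudocount of 0.1 RPKM and 0.50 under quantile normalization, and that of Gas6 was -4.35 with the smaller pseudocount. Over all genes, 434 were called higher without the filter on low values and 455 without a trend, which called 361 lower. Higher genes formed 45.8% of calls without the filter and 58.4% with it. Leaving out 1 T120D line gave 13 to 15 higher and 11 to 16 lower pathway genes. Of the 33 pathway calls, 22 remained without the filter and 21 without a trend; the cause was not tested. Median scaling moved the median of all genes from -0.02 to 0.00. No paired analysis was possible because the wt group has 1 line and shares no number with the T120D lines. Depth limits Mertk and Gas6 most, and for Tyro3 and Pros1 the counting intervals of wt and most T120D lines overlap.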
